A study of Petromyzon marinus with 12 samples.

Results

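The sea lamprey (Petromyzon marinus) annotation deposited with this study places 2083 genes of the count table on 759 unplaced scaffolds, sequences that the assembly could not assign to a chromosome. They are 2083 of the 22407 genes in the table and are set here against 20322 placed genes. A gene was counted as unplaced where the first column of the annotation names an unplaced scaffold and its identifier has a row of counts. PM00065, annotated as ribosomal RNA, and PM00001, annotated as coding, take a large share of counts in single libraries and were left out of both sets. Apart from that exclusion, expression values played no part in the choice.

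Contigs end up unplaced when repeats, tandem copies or collapsed duplicates break the links to a chromosome, so such scaffolds tend to hold ribosomal DNA, gene families and fragments of genes split at a contig's end. The lamprey adds a further reason for interest in them, because cells of its early embryo discard germline-specific DNA that only the germline then keeps. KMT1 and KMT5A are histone lysine methyltransferases, enzymes whose marks are known from other animals for silent chromatin and for chromosome compaction.

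The study measured RNA from whole embryos in 12 libraries, 2 in each of 6 groups: KMT5A knockout, KMT1 knockout and wildtype, each at day 3 and at day 2 of development. Knockout embryos received an injection of Cas9 protein loaded with guide RNAs and a fluorescent dextran. The labels do not say whether wildtype embryos were injected, and embryos edited in this way can be mosaics of edited and unedited cells. All embryos were kept at 18 °C, and those injected were screened for fluorescence at 24 hours. About 100 embryos were pooled and snap-frozen for each library. The labels call the 2 pools of a group biological replicates, and p-values measure only the spread between these libraries. In such whole-embryo pools, fewer cells of a type and less RNA per cell cannot be told apart.

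Total counts were 61886305 to 89061394 per library. KMT5A (PM11985, chromosome 21) stood at 74.5 and 84.6 counts per 1000000 of the scaled library total (CPM) in KMT5A knockout embryos at day 3, against 197 and 208 CPM in wildtype embryos (log2 fold change -1.35, edgeR adjusted p = 6.25e-05), but its day 2 levels overlapped. For the KMT1 knockout the closest symbol was SUV39H2 (PM09768, chromosome 14), a match that is an assumption. It was at 32.7 and 36.8 CPM in KMT1 knockout embryos at day 3, against 51.6 and 56.1 CPM in wildtype embryos (log2 fold change -0.63, edgeR adjusted p = 0.00624), and was not lower at day 2 (log2 fold change 0.31, edgeR adjusted p = 0.0677). Transcript levels therefore check the day 3 labels and not the day 2 labels. Of the gastrula and neurula genes looked for, 10 of 15 symbols were found, at a summed 993 to 1980 CPM, and of the late tissue genes 3 of 10, at 10.8 to 31.7 CPM. Of day 3 counts, the 2 genes left out took 15.3% in KMT5A knockout replicate 1 and 6.99% in KMT1 knockout replicate 2, and in each of the other 10 libraries they took 0.411% to 0.599%. These 2 libraries, rich in ribosomal RNA, touch several results below.

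Gene models on unplaced scaffolds were short, sparsely annotated and often listed at 0 in these embryos. Figures over all of them include 214 transfer RNA genes, all at 0 and none tested. Among tested genes the median exon length was 1470 bases, against 3859 bases for placed genes. Their median exon length was 1133 bases, against 2786 bases for placed genes, with a median of 3 exon blocks against 6. Models with a single exon made up 24.1%, against 16.7% of placed genes, shares that were not computed without transfer RNA genes. A gene symbol, given by the authors from a match to human proteins, was held by 48.8% of them, against 67.3% of placed genes, while the median identity of those matches was close (51.3% against 53.0%). In all 12 libraries 44.1% were at 0, against 25.1% of placed genes, and 671 were above 0 in every library. After edgeR's filter on low counts 1066 (51.2%) could be tested, against 71.6% of placed genes, and the tested ones had a median of 1.95 CPM per kilobase of exon, against 3.34.

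The annotation gives the transcript type mRNA to 1757 of these genes, of which 999 were tested, while its separate coding class holds 1425 genes as coding and 658 as non-coding, so some models of type mRNA, such as PM00004 and PM03494, are classed as non-coding. A further 93 were annotated as long non-coding RNAs (59 tested), 5 as ribosomal RNA (5 tested) and 10 as pseudogenes. All 214 transfer RNA genes were at 0 in every library, and most sat on 4 scaffolds, with 76 on scaffold 767, 70 on scaffold 573, 43 on scaffold 795 and 19 on scaffold 593. RefSeq names 32 of the transfer RNA genes as TRNAI-AAU, which reads isoleucine codons. The labels name a preparation for mRNA, so these zeros are no measure of transfer RNA. The genes were thinly spread: 335 scaffolds held 1 gene each, 363 held 2 to 5 and 61 held more than 5, and 201 scaffolds carried no gene that could be tested.

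Repeated symbols were common. In 54 cases 3 or more unplaced models carried the same symbol, 289 models in all, of which 100 were tested and 175 were at 0 in all 12 libraries. RBM46, an RNA-binding protein needed for germ cell development in mice, was the symbol of 45 models on 32 scaffolds, 25 of them with a single exon. Only 3 of the 45 were tested, and 41 were at 0 throughout. CCNJ (cyclin J) had 16 models and NFASC (neurofascin, a neural adhesion protein) had 11, all of them at 0. DIS3, the ribonuclease of the RNA exosome, was the opposite case, since all 8 of its models on 8 scaffolds were tested. CRYAB, a small heat shock protein, had 7 tested models of 7. Counts of models that share a symbol are uncertain, because the sources used here do not say how reads that map to several places were counted. Among the genes named below, KIF4B, CDC25B, ATCAY, DUSP8, G3BP2, TAF15, MEAF6, C5orf63 and KCTD10 have 1 placed model of the same symbol. BIRC3 and DIS3 also have 1, RNF150 and ALDH1B1 have 2, CRYAB and TRIM54 have 3, SHANK2 and ZP3 have 5 and TGM1 has 6. The reverse transcriptase domain name of PM03073 is held by 16 placed models. Other genes named below may also have placed models. The levels given are those of the unplaced models alone.

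**Figure D1:**
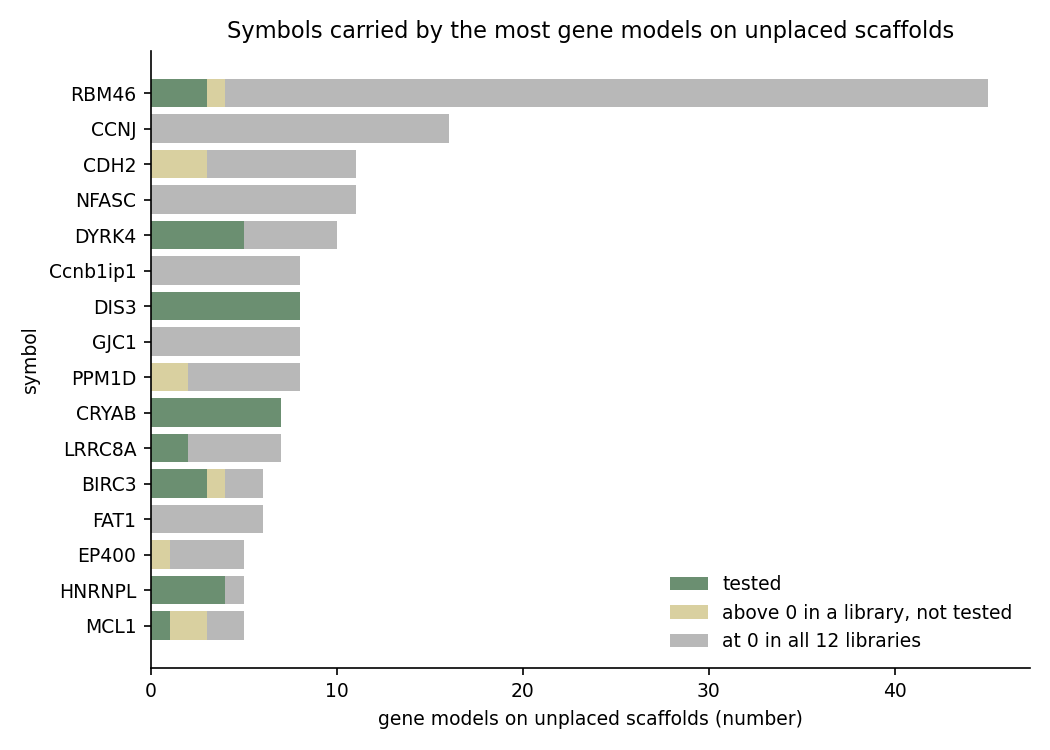
Number of gene models on unplaced scaffolds (x axis) for each symbol held by 5 or more of them (y axis), split into tested models, models above 0 in at least 1 library but not tested, and models at 0 in all 12 libraries. RBM46 stands apart with 45 models, of which 41 are at 0, whereas all 8 DIS3 and all 7 CRYAB models were tested.

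The tested DIS3 models ranged widely in level. At day 3 the model on scaffold 1221 (PM00360) was at 45.9 and 50.9 CPM in wildtype embryos and that on scaffold 995 (PM03124) at 0.272 and 1.35 CPM. Of the 8 models 5 were higher at day 3 than at day 2 in wildtype embryos and none was lower, with edgeR adjusted p from 0.000131 (PM00360) to 0.0221 (PM00880). These differed by 0.57 to 1.98 on the log2 scale. The 8 models had 614 to 2753 exon bases. For BIRC3, an inhibitor of apoptosis, all 3 tested models of 6 were lower at day 3 in wildtype embryos. These symbols were chosen for description after their values were seen. Among all tested genes 29.0% were higher and 37.0% lower at day 3 in wildtype embryos.

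Genes on unplaced scaffolds took 4.81% ± 1.33 of all counts at day 3, against 2.36% ± 0.0613 at day 2 (SD, n = 6 libraries each). By library the day 3 shares were 7.25% and 4.21% in KMT5A knockout, 4.0% and 5.49% in KMT1 knockout and 3.93% and 3.99% in wildtype embryos. At day 2 they were 2.28% and 2.42% in KMT5A knockout, 2.39% and 2.29% in KMT1 knockout and 2.41% and 2.37% in wildtype embryos. All 6 day 3 libraries lay above all 6 day 2 libraries, a difference of 2.45 percentage points (exact permutation test within genotype, two-sided p = 0.00926, the smallest that the 216 arrangements allow). It was 1.55 points without scaffold 120, which carries ribosomal RNA gene models, and 0.503 points without the 10 genes of highest total count. Knockout libraries of both kinds were 0.618 points above wildtype libraries of the same day (exact permutation test within day, two-sided p = 0.311). That sign turned to -0.198 points without scaffold 120 and to -0.241 points without the 2 libraries rich in ribosomal RNA.

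**Figure D2:**
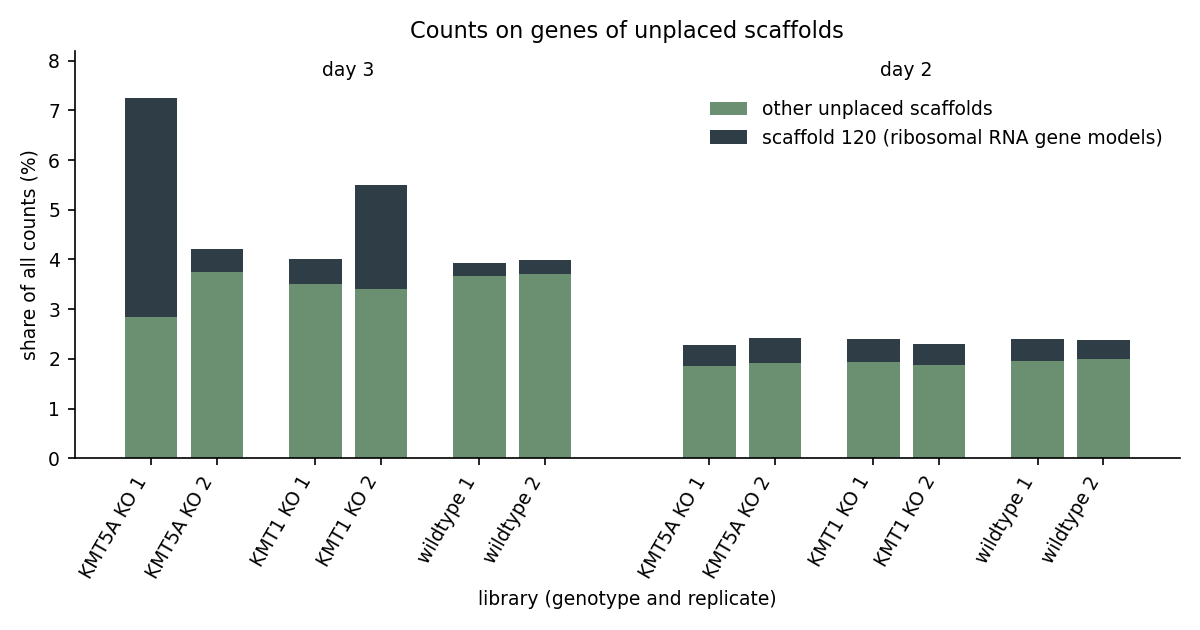
Share of all counts, in percent (y axis), that fell on genes of unplaced scaffolds in each of the 12 libraries (x axis), split into scaffold 120 and all other unplaced scaffolds. The day 3 libraries range from 3.93% to 7.25% and the day 2 libraries from 2.28% to 2.42%, and scaffold 120 alone makes up 4.39% and 2.09% of counts in KMT5A knockout replicate 1 and KMT1 knockout replicate 2 at day 3.

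Ribosomal RNA gene models and their neighbours headed the list of levels per length. Of the 10 genes with the highest CPM per kilobase of exon, 6 lay on scaffold 120, which holds 30 unplaced genes in 4 parts (16 tested). PM00003 (part ctg1C, 10277 to 12100, minus strand) and PM00066 (part ctg1B, 220246 to 222069, plus strand) are annotated as ribosomal RNA of 1824 exon bases each. PM00003 was at 11900 and 2240 CPM in KMT5A knockout, 2520 and 5560 CPM in KMT1 knockout and 1060 and 1180 CPM in wildtype embryos at day 3, against 1510 to 1890 CPM in the 6 day 2 libraries. The highest day 3 values sat in the 2 libraries rich in ribosomal RNA, and the other library of each knockout also exceeded both wildtype libraries. Neither knockout passed the test at day 3 (log2 fold change 2.66, edgeR adjusted p = 0.0794 for KMT5A; 1.85, edgeR adjusted p = 0.17 for KMT1).

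The other 4 models of scaffold 120 in this group behaved alike in level but not in size of the excess. PM00004 (part ctg1C, 22303 to 34813, minus strand), PM00062 (part ctg1B, 194983 to 202346, plus strand), PM00063 (part ctg1B, 202313 to 223187, minus strand) and PM00068 (part ctg1B, 224696 to 225508, minus strand) have no match to a named protein and are classed as non-coding. PM00004 reached 10700 CPM in KMT5A knockout replicate 1 and 3740 CPM in KMT1 knockout replicate 2 at day 3, against 310 and 288 CPM in the other library of each knockout and 236 and 232 CPM in wildtype embryos. PM00068 reached 13600 and 5040 CPM in the same 2 libraries, against 281 to 416 CPM in the other 4 day 3 libraries. None of these models was called in any knockout comparison. PM00003 and PM00004 overlap PM00001, and PM00063 overlaps PM00062, PM00065 and PM00066, each on the other strand. Overlaps were taken from the annotated spans, introns included, and the strand setting of the counting is not stated. Whether reads of such pairs were kept apart is therefore unknown.

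The other highest genes included RPL27A and RPL6, which encode proteins of the large ribosomal subunit, and PM00314, a coding model without a named match on scaffold 742 (40167 to 77182, plus strand). PM00314 stood at 4870 and 5180 CPM in KMT5A knockout, 4520 and 5320 CPM in KMT1 knockout and 5750 and 5280 CPM in wildtype embryos at day 3. At day 2 it was at 466 and 482 CPM in KMT5A knockout, 510 and 461 CPM in KMT1 knockout and 593 and 611 CPM in wildtype embryos. It took 0.347% to 0.522% of counts in the day 3 libraries, against 0.0545% to 0.0691% in the day 2 libraries, and rose by 3.2 on the log2 scale in wildtype embryos (edgeR adjusted p = 4.42e-08).

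Between day 3 and day 2 close to every other tested gene on unplaced scaffolds changed, with as many higher as lower. In wildtype embryos 516 of 1066 (48.4%) differed between day 3 and day 2 at an edgeR adjusted p under 0.05, 258 higher and 258 lower at day 3. Among all 15615 tested genes 66.1% were called, 29.0% higher and 37.0% lower at day 3. Among tested genes with a mean of 1000 counts or more the shares were 84.8% on unplaced scaffolds and 85.7% among placed genes, and under 100 counts they were 20.5% and 30.1%. With scaling by library size alone, which moved the median of all genes by -0.31, the split was 185 higher and 297 lower.

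Most of the tested translation genes rose in wildtype embryos. The list was matched by symbol to ribosomal protein, elongation and initiation factor genes. The match also takes in the kinase RPS6KB1, EIF4ENIF1 and the mitochondrial ribosomal proteins MRPL34 and MRPS18C. Of its 20 unplaced genes 19 were tested, and 13 were higher and 1 was lower at day 3 (median log2 fold change 2.58). Of 212 tested placed genes of the same list 170 were higher and 22 lower (median 2.25), and the median of all tested unplaced genes was -0.13. RPL27A (scaffold 606, 55903 to 62771, minus strand) was at 1290 and 1300 CPM at day 3, against 177 and 164 CPM at day 2 (log2 fold change 2.93 ± 0.0717 SE, edgeR adjusted p = 2.08e-08). Its groups lay far apart. RPS14 (scaffold 803, 42187 to 50158, minus strand), a small-subunit protein, differed by 3.1 and RPL6 (scaffold 897, 58095 to 58247, minus strand) by 3.04 on the log2 scale. The RPL6 model holds 153 exon bases in 1 block, so it is a fragment of the gene. The 3 models named EIF3C, a subunit of the initiation factor that binds the small ribosomal subunit, rose by 2.58, 2.6 and 2.95. EIF2B5, a nucleotide exchange factor for translation initiation, was the one that fell (log2 fold change -0.69, edgeR adjusted p = 0.00023).

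Single genes outside that list, chosen for description after their values were seen, also rose. Both unplaced models of POLR1A, the largest subunit of RNA polymerase I, were higher at day 3 by 3.07 and 3.4 on the log2 scale. Both models of PTBP1, a splicing regulator, rose by 2.89 and 3.45. Of 19 tested RNA-processing genes 9 were higher and 3 lower, where 29.0% of all tested genes were higher and 37.0% lower, and the 3 lower were 2 RBM46 models and DDX4, the germline RNA helicase known as vasa.

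Among single genes, the largest rise above 0 was that of PM03071 (scaffold 846, 50494 to 51126, plus strand), a single-exon coding model without a named match. It was at 11.2 and 9.81 CPM at day 3, against 0.198 and 0.278 CPM at day 2 in wildtype embryos (log2 fold change 5.45 ± 0.345 SE, edgeR adjusted p = 2.53e-06). The next was PM03073 on the same scaffold (54721 to 56463, plus strand), a model with a reverse transcriptase domain, at 12.7 and 10.7 CPM at day 3, against 0.507 and 0.368 CPM at day 2 (log2 fold change 4.74, edgeR adjusted p = 1.19e-05). Both overlap a model on the other strand, and whether reads from the strands were kept apart is not known. CBY1, a regulator of beta-catenin and cilia, rose by 4.4 (scaffold 547, 100834 to 113143, plus strand) and PM01135, a model classed as non-coding beside RPL27A on scaffold 606, by 3.9 (edgeR adjusted p = 0.0404, lost in 6 of 12 fits with 1 library left out, with an adjusted p of up to 0.159). G3BP2, a stress granule protein (scaffold 558, 44470 to 99246, plus strand), was the most abundant of the 5 largest rises, at 731 and 752 CPM at day 3, against 46.4 and 44.9 CPM at day 2 (log2 fold change 4.02, edgeR adjusted p = 1.83e-08).

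The largest falls above 0 were led by 2 non-coding models without a match. PM00932 (scaffold 1201, 3657 to 6274, minus strand) was at 0.788 and 0.389 CPM at day 3, against 17.4 and 15.8 CPM at day 2 (log2 fold change -4.81, edgeR adjusted p = 4.36e-05). PM03494 (scaffold 1354, 9856 to 20919, plus strand) was at 1.7 and 1.36 CPM, against 41 and 41.4 CPM (log2 fold change -4.75, edgeR adjusted p = 2.58e-07). POLD4, a small subunit of DNA polymerase delta, fell by 3.94 (scaffold 1107, 7533 to 23303, plus strand), SHANK2, a scaffold protein of synapses, fell by 3.65 (scaffold 841, 1635 to 54182, minus strand), and MEAF6, a subunit of histone acetyltransferase complexes, fell by 3.57 on the log2 scale (scaffold 687, 68054 to 109332, plus strand). Wildtype libraries of day 2 and day 3 did not overlap for any of these, which was a condition for naming them.

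Some genes present at day 2 were listed at 0 at day 3. Among the unplaced genes 40 (1.92%) were above 0 in all 6 day 2 libraries and at 0 in all 6 day 3 libraries, against 837 (4.12%) of placed genes. The opposite pattern was held by 2 unplaced (0.096%) and 107 placed genes (0.527%). At a mean of 50 counts or more the numbers were 32 unplaced genes (1.54%) and 763 placed genes (3.75%), and 17 of the 32 carry a symbol, among them KIF14, a mitotic kinesin, EPHA5, an ephrin receptor, and PTPN11, a signalling phosphatase. KIF14 (scaffold 580, 52474 to 126310, plus strand, overlapped by a model on the other strand) had 484 and 544 counts in wildtype embryos at day 2, and PM00846 (scaffold 1089, 8915 to 38244, plus strand), a coding model without a match, had 1441 and 1680. A 0 in this table can be a failed estimate, so no fold change is given for such genes.

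The knockouts changed few genes on unplaced scaffolds, and in each of the 4 comparisons with wildtype the share was below that among all genes. At day 3, 23 of 1066 tested genes (2.16%) were called in KMT5A knockout embryos, 19 higher and 4 lower, against 5.3% of all genes (3.33% higher and 1.97% lower). In KMT1 knockout embryos of that day 37 (3.47%) were called, 30 higher and 7 lower, against 6.26% of all genes (4.67% higher and 1.59% lower). At day 2, 37 (3.47%) were called in KMT5A knockout embryos, 5 higher and 32 lower, against 9.07% of all genes (2.64% higher and 6.43% lower). In KMT1 knockout embryos of that day 33 (3.1%) were called, 4 higher and 29 lower, against 9.97% of all genes (3.18% higher and 6.79% lower). Calls were by edgeR's quasi-likelihood test at an adjusted p under 0.05. The 2 knockouts of a day share the same 2 wildtype libraries, so their calls are not independent of each other. Without the 2 libraries rich in ribosomal RNA the day 3 counts were 64 (46 higher and 18 lower) for KMT5A and 91 (75 and 16) for KMT1, and 19 of the 23 and 31 of the 37 genes were among them. Without KMT5A knockout replicate 2 at day 3 the KMT5A count was larger and most of its genes were lower. That fit leaves replicate 1, rich in ribosomal RNA, as the only KMT5A knockout library of the day. Without replicate 1 instead, most called genes were higher, so the direction of that count depends on the library kept. The KMT5A count was also larger without either KMT1 knockout library of day 3. The KMT1 count at day 3 was 21 to 24 without 1 of the day 2 libraries of any genotype. The day 2 counts fell to between 16 and 23 for KMT5A and between 13 and 21 for KMT1 when 1 of the wildtype or own knockout libraries of day 2, or of the wildtype libraries of day 3, was left out.

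Genes of high count were called most often in both sets. Among genes with a mean of 1000 counts or more, of which 264 were unplaced, 5.3% of unplaced and 9.39% of placed genes were called for KMT5A at day 3, and 10.2% and 11.0% for KMT1. At day 2 the shares in this band were 10.6% and 17.7% for KMT5A and 10.6% and 19.6% for KMT1. Genes under 100 counts, 390 of the unplaced and 2816 of the placed, were called in 0.256% to 1.28% of unplaced and 0.994% to 1.21% of placed cases over the 4 comparisons. Between 100 and 1000 counts 0.971% to 1.7% of unplaced and 2.38% to 3.16% of placed genes were called. For KMT1 at day 3 the unplaced share was 1.21% in this band and 1.28% under 100 counts. These shares are descriptions with no test of their difference, and neighbouring or duplicated models are not independent.

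**Figure D3:**
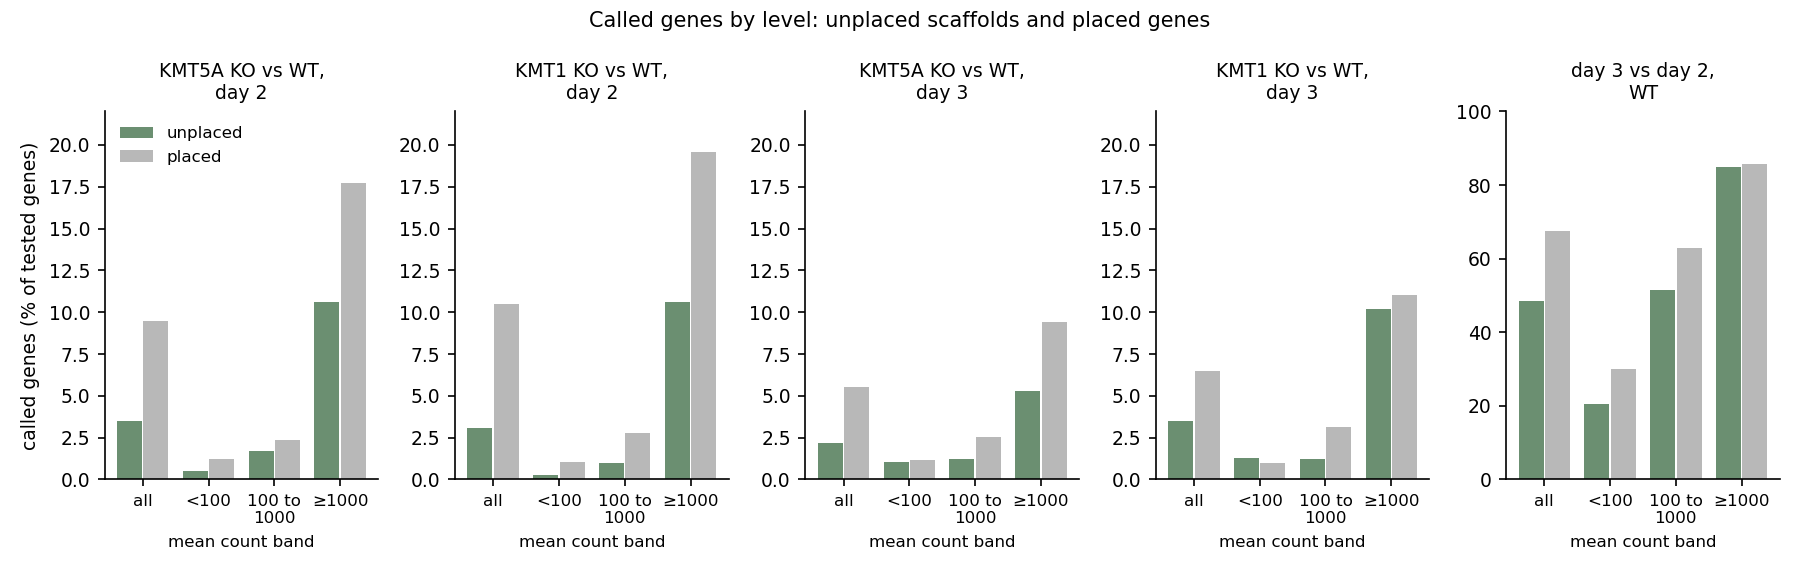
Percent of tested genes called at an edgeR adjusted p under 0.05 (y axis; the right panel has its own scale) for genes of unplaced scaffolds and placed genes, over all tested genes and in 3 bands of mean count (x axis), in 5 comparisons. Both kinds of gene are called most often in the band of 1000 counts or more, and in the band of 1000 or more the unplaced share at day 2 is 10.6% for both knockouts, below 17.7% and 19.6% of placed genes.

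At day 3 the genes that rose in knockout embryos were led by PM03538 (scaffold 881, 18651 to 29105, minus strand), a coding model with a YqaJ domain, a fold known from viral recombinases. It was at 40.4 and 46.7 CPM in KMT5A knockout, 27.9 and 30.8 CPM in KMT1 knockout and 9.93 and 9.33 CPM in wildtype embryos. All 4 knockout libraries lay above both wildtype libraries. The log2 fold change was 2.18 ± 0.182 SE for KMT5A (edgeR adjusted p = 0.000521) and 1.61 ± 0.178 SE for KMT1 (edgeR adjusted p = 0.00251), and both calls held when any 1 library was left out. In fits of the compared groups only, no gene on an unplaced scaffold was called for either knockout at day 3, PM03538 included. At day 2 it was at 2.83 and 3.42 CPM in KMT5A knockout, 2.66 and 3.12 CPM in KMT1 knockout and 2.72 and 2.01 CPM in wildtype embryos, where KMT1 knockout and wildtype libraries overlapped and neither knockout was called.

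Other models without a named match followed. PM03494, the non-coding model that falls between the days, was at 4.58 and 4.25 CPM in KMT5A knockout, 3.8 and 2.75 CPM in KMT1 knockout and 1.7 and 1.36 CPM in wildtype embryos (log2 fold change 1.53, edgeR adjusted p = 0.00313 for KMT5A; 1.1, edgeR adjusted p = 0.0122 for KMT1). It was thus above wildtype in every knockout library, while far below its day 2 levels of 34.4 to 41.4 CPM in all 3 genotypes. The KMT1 call was lost without wildtype replicate 2 of day 3 (the highest adjusted p with 1 library left out was 0.0876). PM01233 (scaffold 738, 25732 to 44920, minus strand), a coding model, was at 13.9 and 16.4 CPM in KMT5A knockout, 17.1 and 11.6 CPM in KMT1 knockout and 7.73 and 7.02 CPM in wildtype embryos. Its log2 fold changes were 1.04 for KMT5A (edgeR adjusted p = 0.0224) and 0.96 for KMT1 (edgeR adjusted p = 0.0264). These calls were lost in 4 and 9 of 12 fits with 1 library left out. The 4 for KMT5A were all the fits without a day 3 library of KMT5A knockout or wildtype embryos.

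Among genes with a known protein, RNF150 (scaffold 763, 78 to 43778, minus strand), a RING finger protein of the ubiquitin ligase kind, was at 16.6 and 14.2 CPM in KMT5A knockout, 15.2 and 17.8 CPM in KMT1 knockout and 9.55 and 9.7 CPM in wildtype embryos. It rose by 0.68 for KMT5A (edgeR adjusted p = 0.00705) and by 0.78 for KMT1 (edgeR adjusted p = 0.00356) with no overlap of the groups. ALOXE3, an epidermal lipoxygenase, rose in both knockouts and stood at 118 and 106 CPM in KMT5A knockout, 111 and 110 CPM in KMT1 knockout and 71.4 and 75.1 CPM in wildtype embryos, and HSD17B4, an enzyme of peroxisomal beta-oxidation, differed by 0.53 for KMT5A and 0.62 for KMT1 on the log2 scale. GNE, the first enzyme of sialic acid synthesis, and SYF2, a splicing factor, also rose in both. These 4 are described after their values were seen. TGM1 (scaffold 689, 62843 to 75309, minus strand), a transglutaminase that cross-links the outer layer of skin, was at 4.9 and 3.91 CPM in KMT5A knockout embryos, against 1.41 and 2.29 CPM in wildtype embryos (log2 fold change 1.25, edgeR adjusted p = 0.0253, lost in 8 of 12 fits with 1 library left out). In KMT1 knockout embryos ZIC2, a transcription factor of the early neural plate, SHANK2 and its neighbour CTTN, an actin-binding protein, passed the test, with log2 fold changes of 0.67, 0.77 and 0.23.

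Fewer genes fell than rose at day 3. DUSP8 (scaffold 569, 23889 to 30885, plus strand), a phosphatase of MAP kinases, was at 2.02 and 1.6 CPM in KMT5A knockout, 3.87 and 5.4 CPM in KMT1 knockout and 4.28 and 3.93 CPM in wildtype embryos. Both KMT5A knockout libraries were the lowest of the 6, and the fall of 1.18 on the log2 scale passed the test (edgeR adjusted p = 0.0208) except without wildtype replicate 1 of day 3 (the highest adjusted p with 1 library left out was 0.0827). DCUN1D1, a factor for the modification of cullins by NEDD8, was at 24 and 23.7 CPM in KMT5A knockout embryos, against 26.9 and 28.9 CPM in wildtype embryos (log2 fold change -0.23, edgeR adjusted p = 0.0351, lost in 8 of 12 fits). In KMT1 knockout embryos TAF15, an RNA-binding protein of the FET family, was at 154 and 136 CPM, against 191 and 183 CPM in wildtype embryos (log2 fold change -0.37, edgeR adjusted p = 0.0254, lost in 5 of 12 fits). DDX51 and C5orf63 (log2 fold change -0.37 each) and DRG1 (-0.35) also passed, and lost the call in 12, 12 and 10 of 12 fits. TAF15 and DRG1 lie on the same scaffold, 480. NSA2, a factor of large-subunit assembly, fell by 0.25 in KMT1 knockout embryos (edgeR adjusted p = 0.0293).

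**Figure D4:**
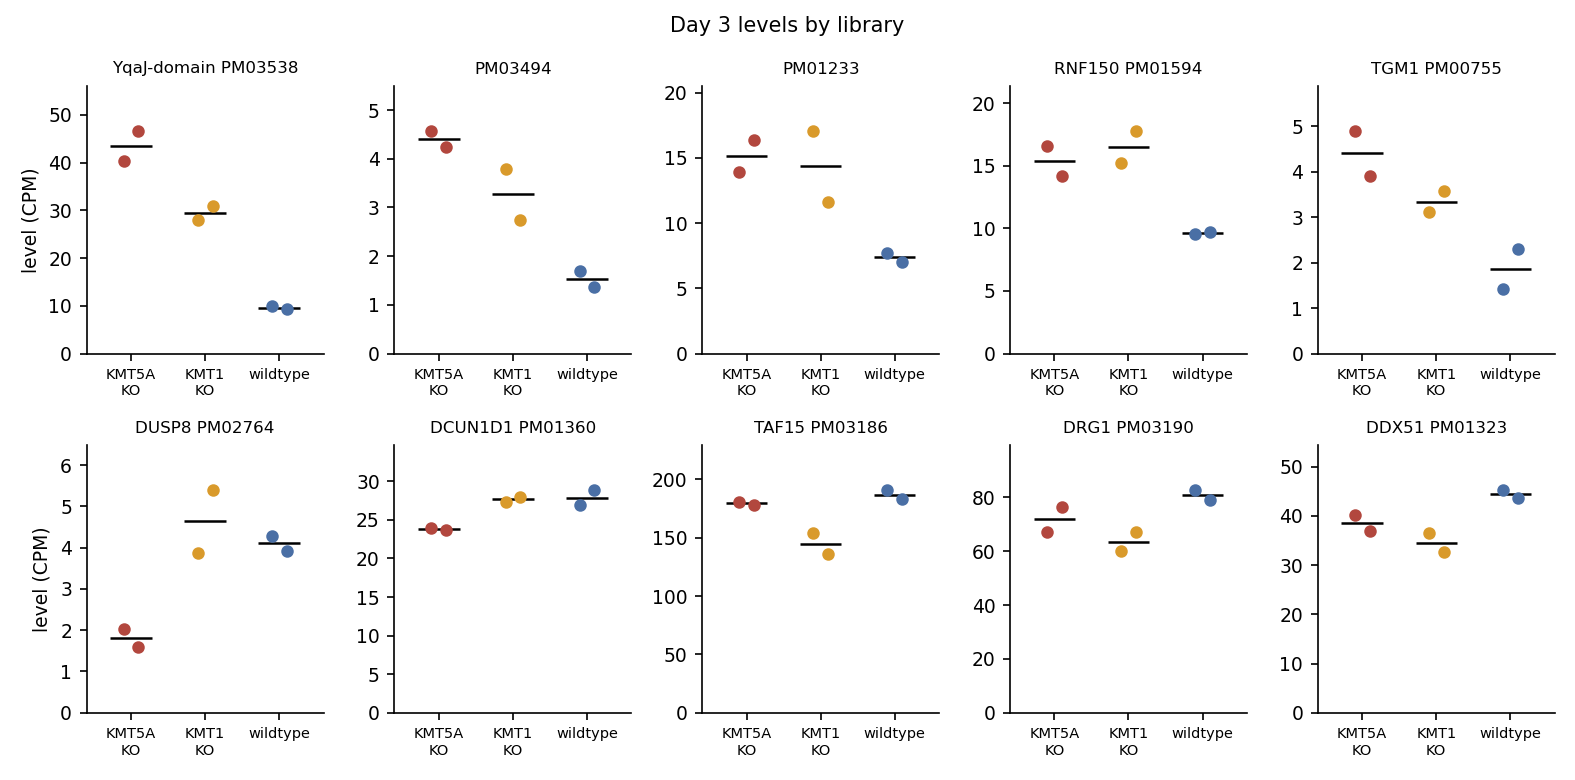
Levels at day 3 in CPM (y axis, each panel from 0) of 10 genes on unplaced scaffolds in KMT5A knockout, KMT1 knockout and wildtype embryos (x axis), with a point per library and a line at the mean of 2. The model with a YqaJ domain shows the widest gap, 40.4 and 46.7 CPM in KMT5A knockout embryos above 9.93 and 9.33 CPM in wildtype embryos.

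A number of day 3 calls came from genes listed at 0 in a whole group, for which counts are given and no fold change. PM01542 (scaffold 489, 783 to 5084, plus strand), a coding model without a named match, had 63 and 71 counts in KMT5A knockout and 63 and 77 counts in KMT1 knockout embryos, against 0 and 0 in wildtype embryos (edgeR adjusted p = 0.000458 for KMT5A and 0.000652 for KMT1). At day 2 it was present in all 3 genotypes, at 98 to 153 counts. The CRYAB model PM01400 (scaffold 1213, 15209 to 17370, minus strand) had 29 and 61 counts in KMT5A knockout and 56 and 47 counts in KMT1 knockout embryos, against 0 and 0 in wildtype embryos. The 6 other CRYAB models were not called at day 3 in either knockout. PM00434 (scaffold 496, 148219 to 185921, plus strand), a coding model without a named match, had 0 and 0 counts in KMT5A knockout, 144 and 101 in KMT1 knockout and 0 and 0 in wildtype embryos. KCTD10, an adaptor of a CUL3 ubiquitin ligase (scaffold 619, 113384 to 136510, plus strand, overlapped by a model on the other strand), had 54 and 163 counts in KMT5A knockout, 0 and 0 in KMT1 knockout and 78 and 47 in wildtype embryos. PM03100 (scaffold 757, 7116 to 12097, plus strand) had 0 and 0 counts in KMT5A knockout, 77 and 58 in KMT1 knockout and 61 and 67 in wildtype embryos.

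At day 2 the direction was the other way, and the ribosomal protein genes RPS14, RPL27A and RPL6 fell in both sets of libraries labelled as knockouts. RPS14 was at 50.3 and 49.2 CPM in KMT5A knockout, 53.9 and 48.5 CPM in KMT1 knockout and 101 and 86.5 CPM in wildtype embryos. Every knockout library lay well below both wildtype libraries. Its log2 fold change was -0.91 ± 0.095 SE for KMT5A (edgeR adjusted p = 0.00119) and -0.87 ± 0.0949 SE for KMT1 (edgeR adjusted p = 0.00137). RPL27A fell by 0.67 for KMT5A and by 0.7 for KMT1, and RPL6 fell by 0.52 for KMT5A and by 0.58 for KMT1, each at an edgeR adjusted p of 0.00538 or less. Of the 19 tested translation genes of these scaffolds 4 fell and none rose in each knockout, and their medians were -0.45 for KMT5A and -0.52 for KMT1. Among placed translation genes 125 of 212 fell and 3 rose for KMT5A (median -0.4) and 122 fell and 3 rose for KMT1 (median -0.38). At day 3 no translation gene on an unplaced scaffold was called in either knockout, and the medians were -0.03 for KMT5A and -0.08 for KMT1.

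NSA2 also fell in both knockouts at day 2. It was at 72.4 and 72.9 CPM in KMT5A knockout, 76.9 and 73.4 CPM in KMT1 knockout and 125 and 129 CPM in wildtype embryos. Its log2 fold change was -0.81 for KMT5A (edgeR adjusted p = 0.000253) and -0.76 for KMT1 (edgeR adjusted p = 0.000302). Of 19 tested RNA-processing genes 2 fell in each knockout, the helicase DDX17 and 1 of 2 models of HNRNPK, a share near that among all genes. The medians of the 19 were -0.05 for KMT5A and -0.02 for KMT1. Of 161 tested placed genes of the same list 59 fell and 2 rose for KMT5A (median -0.22). For KMT1 67 of them fell and 1 rose (median -0.25). DDX17 was at 213 and 223 CPM in KMT5A knockout, 201 and 185 CPM in KMT1 knockout and 307 and 308 CPM in wildtype embryos. MCM4, a subunit of the replicative helicase, fell by 0.41 on the log2 scale in both knockouts. These genes were chosen for description after their values were seen.

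CDC25B (scaffold 621, 70621 to 123794, plus strand), the phosphatase that activates cyclin-dependent kinases for entry into mitosis, was at 16.1 and 14.6 CPM in KMT5A knockout, 15.9 and 15.8 CPM in KMT1 knockout and 31.7 and 28.4 CPM in wildtype embryos. The 4 knockout libraries were nearly equal and all far below wildtype. The log2 fold change was -0.97 ± 0.0762 SE for KMT5A (edgeR adjusted p = 0.00047) and -0.92 ± 0.0761 SE for KMT1 (edgeR adjusted p = 0.000478). The gene overlaps a model on the other strand. At day 3 CDC25B reached 192 to 252 CPM in all genotypes and was not called.

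The largest fall above 0 for KMT1 was that of PM00922 (scaffold 279, 141292 to 161862, minus strand), a model of HSP90AB1, the constitutive cytosolic chaperone. It was at 5.47 and 4.98 CPM in KMT5A knockout, 1.94 and 2.4 CPM in KMT1 knockout and 6.11 and 6.39 CPM in wildtype embryos at day 2 (KMT1 log2 fold change -1.52 ± 0.162 SE, edgeR adjusted p = 0.00122; KMT5A -0.26, edgeR adjusted p = 0.475). A second HSP90AB1 model, PM00255 on scaffold 678, was at 6.42 and 6.01 CPM in KMT1 knockout embryos, against 5.7 and 5.97 CPM in wildtype embryos, and was not called. A further model, PM03010, was at 0.592 and 0.682 CPM in KMT1 knockout embryos at day 2, against 0.793 and 0.834 CPM in wildtype embryos. The 3 models summed to 8.95 and 9.09 CPM in KMT1 knockout and 12.6 and 13.2 CPM in wildtype embryos of that day. Reads of these copies may have been assigned to any of them, which was not tested. At day 3 PM00922 was at 5.74 and 5.51 CPM in KMT1 knockout embryos, against 5.55 and 5.24 CPM in wildtype embryos.

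For KMT5A the largest falls above 0 were CBY1, FRMD7-domain, PM01599 and ZCCHC9-domain. CBY1 was at 0.272 and 0.329 CPM in KMT5A knockout embryos, against 0.617 and 1.21 CPM in wildtype embryos (log2 fold change -1.6, edgeR adjusted p = 0.0431, lost in 10 of 12 fits with 1 library left out). The gene with the FERM domain of FRMD7, a membrane-cytoskeleton protein (scaffold 501, 4528 to 51966, plus strand), was at 2.09 and 1.62 CPM, against 4.38 and 3.84 CPM (log2 fold change -1.15, edgeR adjusted p = 0.032, lost in 8 of 12 fits). PM01599 (scaffold 360, 77952 to 94523, minus strand), a coding model without a named match, was at 1.93 and 2.55 CPM in KMT5A knockout, 2.71 and 2.37 CPM in KMT1 knockout and 4.2 and 4.88 CPM in wildtype embryos. It was called for KMT5A in every fit with 1 library left out (log2 fold change -1.02, edgeR adjusted p = 0.00661) and for KMT1 in 9 of 12 (-0.84, edgeR adjusted p = 0.0134). The gene with the zinc finger domain of ZCCHC9 (scaffold 608, 134750 to 143046, plus strand) was at 18.1 and 12 CPM in KMT5A knockout embryos, against 29.2 and 31.3 CPM in wildtype embryos (log2 fold change -1.0, edgeR adjusted p = 0.0456, lost in 9 of 12 fits), and overlaps a model on the other strand.

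The rises at day 2 were few. Both unplaced models of KIF4B, a chromosome-associated kinesin of mitosis, were higher in both knockouts. A placed model of the same symbol is not described here. PM01216 (scaffold 1012, 144 to 45218, plus strand) was at 10.7 and 11.9 CPM in KMT5A knockout, 10.3 and 11.2 CPM in KMT1 knockout and 4.93 and 4.77 CPM in wildtype embryos. PM01559 (scaffold 709, 6819 to 23234, plus strand), which overlaps a model on the other strand, was at 34.2 and 39.8 CPM in KMT5A knockout, 37.7 and 39.1 CPM in KMT1 knockout and 18.4 and 21.2 CPM in wildtype embryos. No knockout library overlapped with wildtype for either model, which was a condition for naming them. The log2 fold change of PM01216 was 1.22 for KMT5A (edgeR adjusted p = 0.0256) and 1.15 for KMT1 (edgeR adjusted p = 0.0299), and that of PM01559 was 0.9 for KMT5A (edgeR adjusted p = 0.0415) and 0.96 for KMT1 (edgeR adjusted p = 0.0309). Leaving out 1 library ended these 4 calls in 5 to 10 of 12 fits. The KIF4B models, which share 1 symbol, were the only 2 of 13 tested cytoskeleton and motor genes called in either knockout at day 2. Of 132 tested placed genes of this list, 4 rose and 3 fell for KMT5A, and 4 rose and 5 fell for KMT1. Among all tested genes 2.64% were called higher for KMT5A and 3.18% for KMT1. ATCAY, which encodes the neuronal protein caytaxin (scaffold 697, 80445 to 109340, plus strand), was at 71.8 and 75 CPM in KMT5A knockout, 77.7 and 79 CPM in KMT1 knockout and 42.1 and 40 CPM in wildtype embryos (log2 fold change 0.84, edgeR adjusted p = 0.0248 for KMT5A; 0.93, edgeR adjusted p = 0.0146 for KMT1). Both calls were lost in 4 of 12 fits, those without a day 2 library of either compared group. PM02611 (scaffold 1436, 18 to 16883, plus strand), a coding model without a named match, passed for KMT5A by a small margin (log2 fold change 1.69, edgeR adjusted p = 0.0499, lost in 10 of 12 fits).

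**Figure D5:**
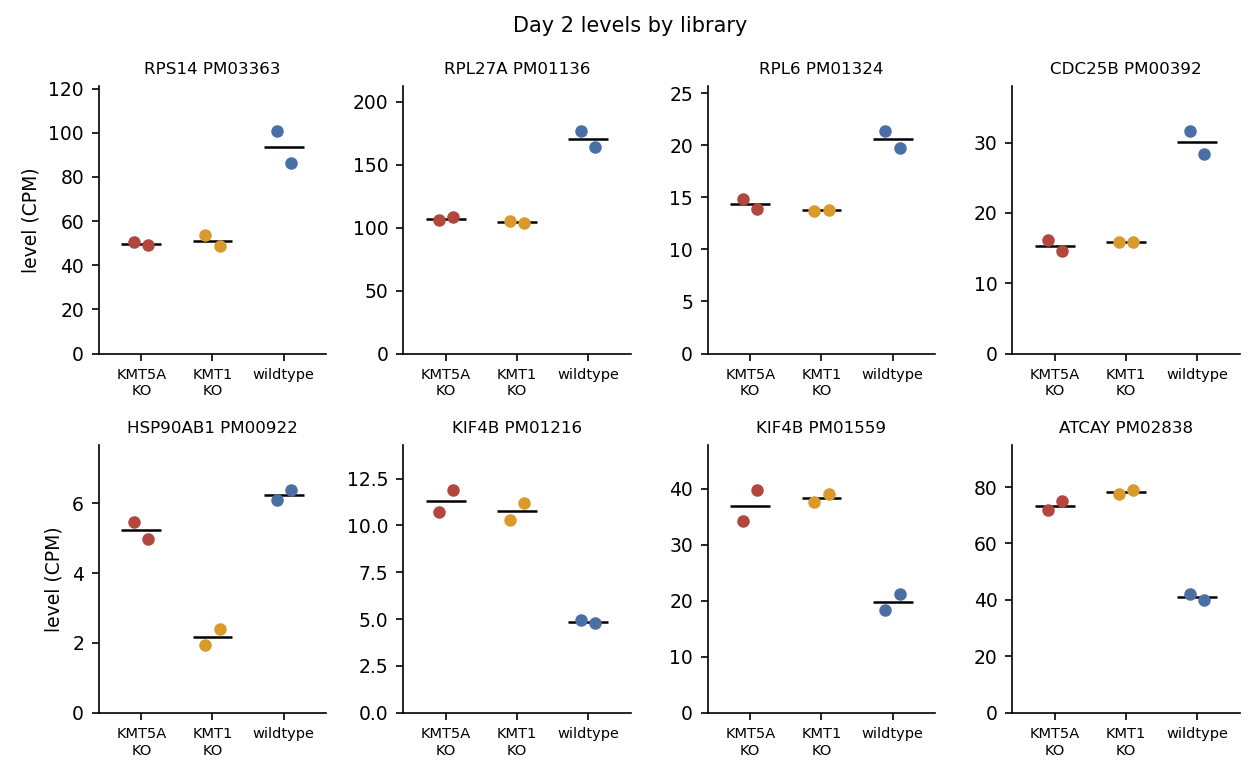
Levels at day 2 in CPM (y axis, each panel from 0) of 8 genes on unplaced scaffolds in KMT5A knockout, KMT1 knockout and wildtype embryos (x axis), with a point per library and a line at the mean of 2. The ribosomal protein genes and CDC25B are low in both knockouts (RPS14 at 48.5 to 53.9 CPM, against 86.5 and 101 CPM in wildtype embryos), the HSP90AB1 model is at 1.94 and 2.4 CPM in KMT1 knockout embryos, against 6.11 and 6.39 CPM in wildtype embryos, and both KIF4B models and ATCAY are high in both.

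PRDM7 was the 1 gene called at day 2 that was listed at 0 in a whole group. PRDM7 is a histone methyltransferase with zinc fingers, in humans a close relative of the recombination factor PRDM9. The model PM01137 (scaffold 606, 76617 to 95730, plus strand) had 177 and 190 counts in KMT5A knockout and 124 and 144 counts in KMT1 knockout embryos, against 0 and 0 counts in wildtype embryos (edgeR adjusted p = 0.0126 for KMT5A and 0.0123 for KMT1, lost in 4 of 12 fits with 1 library left out). The 2 other PRDM7 models, PM00329 and PM00330 on scaffold 524, were present at 0.44 to 1.74 CPM in all day 2 libraries, wildtype included, and were not called. All 3 were at 0 in every day 3 library. At day 2, 6 unplaced genes (0.288%) were above 0 in all 4 knockout libraries and at 0 in both wildtype libraries, against 54 placed genes (0.266%).

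The genes whose symbol no other gene of the table carries were also counted apart, since their reads raise no question of copies with the same symbol. Of 280 such tested genes, 5 rose and 1 fell for KMT5A at day 3, 6 rose and 2 fell for KMT1 at day 3, 20 fell and none rose for KMT5A at day 2, and 16 fell and none rose for KMT1 at day 2. Among the 391 tested genes with a shared symbol, 6 rose and 2 fell for KMT5A at day 3, 12 rose and 5 fell for KMT1 at day 3, and 4 rose and 8 fell in each knockout at day 2. Among all tested genes 5.3% were called for KMT5A and 6.26% for KMT1 at day 3, and 9.07% for KMT5A and 9.97% for KMT1 at day 2.

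Set against each other at day 3, the knockouts differed in 8 of 1066 unplaced genes (0.75%), 2 higher and 6 lower in KMT5A than in KMT1 knockout embryos, against 1.47% of all tested genes (0.371% higher and 1.1% lower). With scaling by library size alone the split was 1 higher and 6 lower. In 7 of the 8 a group was listed at 0, among them KCTD10, PM00434 and PM03100 above. Also at 0 in both KMT5A knockout libraries were TRIM54, a muscle ring finger protein (27 and 54 counts in KMT1 knockout embryos, 0 and 0 in wildtype embryos), and the BIRC3 model PM00553 (53 and 16 counts in KMT1 knockout embryos, 27 and 20 in wildtype embryos). The gene above 0 throughout was DUSP8 (log2 fold change -1.36 ± 0.215 SE, edgeR adjusted p = 0.0228, lost in 4 of 12 fits). The count was 37 without the 2 libraries rich in ribosomal RNA, and 28, 22, 16 and 55 without KMT1 knockout replicate 1, KMT1 knockout replicate 2, KMT5A knockout replicate 1 and KMT5A knockout replicate 2 of day 3.

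The knockout effect itself differed between day 3 and day 2 for 43 genes (4.03%) under KMT5A, 38 with a higher and 5 with a lower value at day 3, against 9.65% of all tested genes (6.47% higher and 3.18% lower). Under KMT1 it differed for 40 genes (3.75%), 36 higher and 4 lower, against 10.2% of all tested genes (7.3% higher and 2.91% lower). With scaling by library size alone the KMT5A count was 5, with 2 higher and 3 lower. Both counts were smaller without 1 of the wildtype or own knockout libraries of day 2. Without KMT5A knockout replicate 2 of day 3 the KMT5A count was larger and split nearly evenly. That fit leaves replicate 1, rich in ribosomal RNA, as the only KMT5A knockout library of day 3. The median log2 difference of tested genes was then -0.02, against 0.14 with all libraries and 0.15 without replicate 1. The direction of that count thus depends on the library kept. RPS14, RPL27A, RPL6 and CDC25B were among the genes with higher values in both, and both KIF4B models among those with lower values (log2 difference -1.77 and -1.3 for KMT5A, -1.75 and -1.42 for KMT1). ALDH1B1, a mitochondrial aldehyde dehydrogenase (scaffold 682, 468 to 29992, plus strand), had the largest positive difference among genes above 0 throughout. It was at 2.43 and 2.26 CPM in KMT5A knockout, 2.55 and 2.26 CPM in KMT1 knockout and 0.53 and 1.1 CPM in wildtype embryos at day 3, and at 1.32 and 1.28 CPM in KMT5A knockout, 1.02 and 1.25 CPM in KMT1 knockout and 2.15 and 1.67 CPM in wildtype embryos at day 2. Wildtype was thus lowest at day 3 and highest at day 2 (log2 difference 2.07, edgeR adjusted p = 0.0483 for KMT5A; 2.3, edgeR adjusted p = 0.0318 for KMT1), and the calls were lost in 11 and 8 of 12 fits with 1 library left out.

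On the 5 scaffolds with the most tested genes, chosen by that number, at most 2 neighbours were called in any knockout comparison with wildtype. Among all tested genes 5.3% to 9.97% were called in those comparisons. Scaffold 606 carried 11 tested genes of 12, and RPL27A and PRDM7 were the only 2 called in either knockout at day 2, in opposite directions, with none called at day 3. Between day 3 and day 2 in wildtype embryos 4 of its 11 genes rose and none fell. Among all tested genes 29.0% were higher and 37.0% lower at day 3, and counts per scaffold were not tested against these shares. Scaffold 584 carried 10 tested genes of 11, including the 2 models of EIF4ENIF1, which shuttles an initiation factor into the nucleus. Of its tested genes 7 rose and 1 fell between the days (median log2 fold change 1.59), with no call in a knockout. On scaffold 208, where 9 of 19 genes were tested, 2 fell and none rose between the days. Scaffold 360 had 4 higher and 2 lower of 9 tested, and scaffold 470, with the immune genes GVINP1 and TRIM14, had 3 lower of 9.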

How the data were processed

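RNA of whole sea lamprey embryos was measured in 12 libraries of 6 groups. The authors deposited a table of estimated counts per gene and a gene annotation whose assembly is not named in the sources used here. Per the submitters' processing notes HISAT2 2.2.1, StringTie 2.2.3 and DESeq2 1.42.1 were used. How strand and multiply mapped reads were treated is not given in the sources used here. RefSeq names matched 257 of 424 NCBI gene identifiers of the unplaced genes (assembly UKy_Petmar_22M1.pri1.0), and its coordinates were not used.

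The deposited counts, whole numbers here, were fitted over all genes in 1 model of 6 groups with edgeR 4.0.16 in R 4.3.3 (TMM scaling, the filterByExpr filter on low counts, quasi-likelihood F test, 6 residual degrees of freedom). P-values were adjusted by Benjamini-Hochberg over 15615 genes and called under 0.05 in 8 comparisons. Levels are counts per 1000000 of the TMM-scaled library total (CPM). A standard error is the absolute log2 fold change divided by the square root of F. The share of counts was tested by exact permutation. The test was checked on simulated counts. Depths of 61886305 to 89061394 counts per library leave genes under 100 mean counts with wide errors. Median absolute log2 ratios between replicates were 0.155 to 0.272 for unplaced and 0.095 to 0.174 for placed genes. Chi-square per gene between the 2 libraries of a group was 25.8 to 1034.8, more than random sampling of reads alone would give. Library preparation and the estimation of counts also add to this value. It therefore cannot tell 2 separate pools from 2 libraries of 1 pool. Libraries of different groups were not compared in this way. The alternatives were RLE size factors, library size alone, other filters, the compared groups only, limma 3.58.1 (voom with a quality weight per group), DESeq2 1.42.0, a replicate block, leaving out each library, and, chosen after the data were seen, leaving out scaffold 120 or the 2 libraries rich in ribosomal RNA.

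The genes described singly were the 10 of highest CPM per kilobase and, per comparison, up to 4 called genes each way (5 for wildtype day 3 against day 2) by size of change with a mean of 50 counts or more and no overlap of the groups. A lack of overlap in the comparison that named a gene was thus a condition of the choice and no separate result. Genes listed at 0 in a group were named apart, since a 0 among estimated counts can be a failed estimate. Other genes were chosen after their values were seen, as the text says. The set of genes, the gene lists and the rules were chosen with earlier results of these data known. Some genes are not reported here by name, and counts over lists include them. No sequences were used here.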

Additional observations from a re-analysis of the deposited data

Results flagged for a closer look

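For 43 genes on unplaced scaffolds (4.03%) under KMT5A and for 40 (3.75%) under KMT1, the knockout effect was not the same at day 3 as at day 2. That difference was itself tested in the edgeR model of all groups. Among all tested genes the shares were larger, 9.65% for KMT5A and 10.2% for KMT1. With scaling by library size alone the counts on unplaced scaffolds were 5 and 6. Both sets of tests use the same wildtype libraries, so they are not independent of each other.

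The ribosomal protein genes RPL27A, RPL6 and RPS14 were among them. For KMT5A the adjusted p of the difference was 0.00673 at RPL27A, 0.023 at RPL6 and 0.00893 at RPS14. For KMT1 it was 0.00884 at RPL27A, 0.037 at RPL6 and 0.0145 at RPS14. For the mitotic phosphatase CDC25B it was 0.00153 for KMT5A and 0.00534 for KMT1. At the kinesin KIF4B it was 0.023 for KMT5A and 0.0226 for KMT1 in the model PM01216, and 0.0371 for KMT5A and 0.0253 for KMT1 in the model PM01559.

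The difference also passed at other genes above 0. For KMT5A the adjusted p was 0.00569 at the YqaJ-domain gene, 0.00653 at PM03494, 0.0494 at RNF150, 0.0483 at ALDH1B1 and 0.0265 at PM01599. For KMT1 it was 0.0155 at the YqaJ-domain gene, 0.0174 at PM03494, 0.0406 at RNF150, 0.0318 at ALDH1B1, 0.043 at SHANK2 and 0.00554 at HSP90AB1.

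In further genes a group was listed at 0. For KMT5A the adjusted p was 0.00106 at PM01542, 0.00218 at the CRYAB model PM01400, 0.00118 at PM03100 and 0.00647 at the BIRC3 model PM00553. For KMT1 it was 0.00138 at PM01542, 0.00285 at PM01400, 0.001 at PM00434, 0.00271 at KCTD10 and 0.00631 at TRIM54. These rest on 16 to 163 counts per library where the gene was above 0 at day 3.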

How the results depend on the processing

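Of 68 results on single genes none reversed under any setting. All were chosen as called, and most with groups that do not overlap or with a group at 0. That choice left little room for a reversal, so its absence says little. In a comparison of 2 groups, most of the 12 fits with 1 library left out drop a library of another group. With 1 library left out 601 of 816 values kept their call, 215 lost it and 0 reversed. DESeq2 kept 67 of the 68 calls, RLE size factors 60, no filter 65, voom 49, library size alone 38, the compared groups only 36, the replicate block 55 and the fits without the libraries rich in ribosomal RNA 60. Counts of called genes moved more. For KMT5A at day 3 (23) they were 11 by library size alone, 0 in the compared groups only (84 at an unadjusted p under 0.05), 64 without the libraries rich in ribosomal RNA, 13 by voom, 114 by DESeq2 and 10 at an absolute log2 fold change of 1 or more, with 17 to 110 as 1 library was left out. For KMT1 at day 3 (37) they were 11 by library size alone, 0 in the compared groups only (128 unadjusted), 91 without the libraries rich in ribosomal RNA, 116 by DESeq2 and 10 at that fold, with 21 to 52 as 1 library was left out. For KMT5A at day 2 (37) they were 8 by library size alone, 63 by voom, 71 by DESeq2 and 7 at that fold, with 16 to 39 as 1 library was left out. For KMT1 at day 2 (33) they were 10 by library size alone, 57 in the compared groups only (26 higher, 31 lower), 76 by voom, 60 by DESeq2 and 3 at that fold, with 13 to 33 as 1 library was left out. For KMT5A against KMT1 at day 3 (8) they were 5 with the replicate block, 0 in the compared groups only (33 unadjusted), 37 without the libraries rich in ribosomal RNA, 1 without genes listed at 0, 0 by voom (26 unadjusted) and 39 by DESeq2, with 6 to 55 as 1 library was left out. The difference of the effect between the days gave for KMT5A (43) 5 by library size alone, 71 without the libraries rich in ribosomal RNA, 122 by DESeq2 and 17 at that fold, with 25 to 97 as 1 library was left out. For KMT1 (40) it gave 6 by library size alone, 93 without the libraries rich in ribosomal RNA, 117 by DESeq2 and 15 at that fold, with 17 to 57 as 1 library was left out. The wildtype count (516) stayed within 429 to 547 as 1 library was left out. The causes were not tested. Library size alone moved the median of all genes by -0.13 for KMT5A at day 3. The excess of the knockouts in the share of counts, 0.618 points, turned to -0.111 points without the 10 genes of highest total count. It was -0.198 without scaffold 120 and -0.241 without the libraries rich in ribosomal RNA. With mitochondrial genes and the 2 excluded genes out of the denominator it was 0.839. With 1 library left out it was 0.125 to 0.889. The excess of day 3 was 1.96 to 2.63 with 1 library left out. Same-numbered libraries did not deviate together (correlations -0.094 to 0.064), so the numbers do not pair them. With the replicate block the counts were 20 for KMT5A and 29 for KMT1 at day 3, 27 for KMT5A and 29 for KMT1 at day 2, 489 in wildtype, and 38 for KMT5A and 36 for KMT1 in the difference between the days. It ended 13 single calls, at adjusted p of 0.0517 to 0.0764: PRDM7 for both knockouts, CBY1 and the FRMD7-domain and ZCCHC9-domain genes for KMT5A at day 2, DCUN1D1 for KMT5A and C5orf63, DDX51 and DRG1 for KMT1 at day 3, DUSP8 between the knockouts, PM01135 in wildtype, and ALDH1B1 for both knockouts in the difference between the days. In the comparisons of a knockout with wildtype, 0.256% to 1.28% of unplaced genes under 100 mean counts were called.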

Other observations

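A long non-coding RNA, PM02830 (scaffold 657, 87944 to 99506, plus strand), held the largest share of counts outside the ribosomal RNA scaffold. It took 0.723% to 0.881% of counts in the day 3 libraries, against 0.262% to 0.312% in the day 2 libraries. It was at 10200 and 8900 CPM in KMT5A knockout, 8480 and 10400 CPM in KMT1 knockout and 8720 and 9660 CPM in wildtype embryos at day 3. Wildtype embryos had 2540 and 2490 CPM at day 2, and the rise of 1.87 ± 0.122 SE on the log2 scale passed the test (edgeR adjusted p = 3.05e-06). The genotypes overlapped at day 3. PM02830 was chosen after its values were seen.

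In wildtype embryos 37.0% of all tested genes were lower and 29.0% higher at day 3. All 8 germline and piRNA genes on unplaced scaffolds were tested, and 5 fell and none rose at day 3, against 22 lower and 1 higher of 33 tested placed genes. They were MAEL (log2 fold change -1.17), a factor of transposon silencing in the germline, DDX4 (-1.06), and 3 models named for coat proteins of the egg, ZP3 (PM00109, -1.31), a further ZP3 (PM00167, -0.21) and ZP4 (-0.27). The median of the 8 was -0.28. Of 10 tested genes of a list for innate immunity, matched by symbol, 6 fell and none rose, against 28 lower and 10 higher of 65 placed ones. The match is loose, since the 6 include TRIM54, the muscle ring finger protein named above. Of 14 tested genes of the ubiquitin pathway 5 rose and 6 fell.

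Other lists held few tested genes. Of 23 unplaced cadherin genes 1 was tested, of 23 signalling ligands and receptors 4, and of 9 G protein-coupled receptors 2, and none of these was called in a knockout. No histone gene was found on an unplaced scaffold.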
